A study of Mus musculus with 42 samples.

Results

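The 10 glutathione S-transferase genes Gsta3, Gsta4, Gstm1, Gstm2, Gstm5, Gstp1, Gstt1, Gstt2, Gstk1 and Gsto1 were followed across aorta and skeletal muscle of mice with diabetes and with diabetic macroangiopathy. They were taken by gene symbol and were read by 13 of the 34891 array probes that carry a symbol, out of 21186 genes with a symbol. Total RNA of 3 mice per group had been hybridized to single-colour Agilent mouse arrays, 1 array for each of 42 samples, in 7 groups and 2 tissues. The healthy group (G) consisted of C57 mice. The spontaneous diabetic group (A) consisted of KK/Ay mice, an obese strain that turns diabetic on its own. The macroangiopathy group (C) consisted of KK/Ay mice whose food was high in fat and whose drinking water held L-NAME, which blocks nitric oxide synthase. The remaining groups were KK/Ay mice given the same diet and L-NAME and then treated with SHENQI compound (B), the yangyinyiqi (D) or huoxue (E) part of that herbal formula, or rosiglitazone (F), an agonist of the nuclear receptor PPAR gamma. Groups G, A and C were given saline by gavage in place of a drug. All KK/Ay groups differed from the healthy group in strain as well as in disease, so strain and diabetes cannot be told apart in any comparison with group G. Whether the aorta and the muscle of a set came from the same animals is not given in the sources used here. The fits that use both tissues had no term for the animal and treated all arrays as independent.

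Glutathione S-transferases join the tripeptide glutathione to electrophilic molecules such as drug metabolites, quinones and the aldehydes left by oxidized lipids, which makes them soluble and ready for export. The cytosolic enzymes are grouped by sequence into classes, here alpha (Gsta), mu (Gstm), pi (Gstp), theta (Gstt) and omega (Gsto), while the kappa enzyme (Gstk) is found in mitochondria and peroxisomes. Several of these genes are known targets of the transcription factor NRF2, which binds antioxidant response elements when cells meet oxidative or electrophilic stress.

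The probes of Gsta3, Gsta4, Gstm2, Gstt1 and Gsto1 are shown first, because the levels of these genes below rest on the brightness of these sequences. A gene with 2 probes (Gsta3, Gstm1 or Gstp1) was given their average. The beginning of each 60-base probe is given, 5′ to 3′, as 30 bases in lower case, and the positions are those of the array annotation on mouse build mm9. The files do not say which exon or untranslated region a probe lies in.
Gsta3, chr1:21255189-21255248, plus strand: tgacgaggaacggccggatgctctctagtt
Gsta3, chr1:21255092-21255151, plus strand: ttttgcatcacattgaagtgttttgactaa
Gsta4, chr9:78046172-78047344, plus strand: gctggagtggagtttgaggaagaatttctt
Gstm2, chr3:107784622-107784681, minus strand: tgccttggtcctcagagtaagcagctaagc
Gstt1, chr10:75249693-75256857, minus strand: cttcggagaagctgcctcagggccctgtgg
Gsto1, chr19:47939128-47939187, plus strand: ccatccccaaggccatcacctctggtttga
The probes of Gsta4 and Gstt1, and 1 of the 2 probes of Gstp1, spanned far more of the genome than their own length (1173, 7165 and 816 bases), so they cross an intron. The array annotation lists transcripts of both Gstp1 and Gstp2 for the other Gstp1 probe, and a signal of the pair cannot be assigned to 1 of them there. Among all glutathione S-transferase probes of the array, the longest run of bases that a member's probe shared with the probe of another gene was 10 (Gstm5 with Gstm6). Between the closest probes of Gstm1 and Gstm2 it was 9. These values compare probe with probe, and how well a probe matches the transcript of a related gene was not tested.

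The start regions of the members were searched for 2 motifs, since both are sites of stress-responsive factors. RefSeq windows on build GRCm38.p6, from 250 bases before to 50 bases after a start, were held for 8 of the 10 members, in 9 windows. Gsta4 and Gstt2 had no entry. The antioxidant response element core TGACNNNGC, searched on both strands, was in the windows of Gsta3 and Gstm5, and 12.4% of all 32851 windows hold it. The AP-1 site TGAGTCA, also searched on both strands, was in the windows of Gstm5 and Gstp1, and 5.2% of all windows hold it. The 2 motifs share their first 3 letters but overlapped in none of these windows. The matches are printed with the bases around them, on the strand of the gene, with the match in capitals.
Gsta3, chr1:21240444-21240492, plus strand, core starting 121 bases before the start: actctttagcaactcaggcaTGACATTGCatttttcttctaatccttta
Gstm5, chr3:107895792-107895840, plus strand, core starting 42 bases before the start: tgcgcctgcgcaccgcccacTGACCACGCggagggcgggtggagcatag
Gstm5, chr3:107895658-107895704, plus strand, AP-1 site on the opposite strand starting 176 bases before the start: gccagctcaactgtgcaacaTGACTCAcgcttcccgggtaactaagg
Gstp1, chr19:4037960-4038006, minus strand, AP-1 site starting 74 bases before the start: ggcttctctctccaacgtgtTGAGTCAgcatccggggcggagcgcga
A match is a run of letters in the reference strain and says nothing of binding in these tissues.

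The arrays were not alike in quality or in tissue content, and those facts bear on several values below. The share of probes with a symbol that were well above background ran from 62.92% to 77.64% in aorta and from 53.84% to 70% in muscle, and the arrays of slide 11 (all 3 huoxue and 1 rosiglitazone muscle arrays) had the lowest, 53.84% to 57.3%. All 9 skeletal muscle markers were well above background on all 21 muscle arrays, and all 8 smooth muscle markers were so on all 21 aorta arrays. The aorta arrays also carried fat, brown fat, skeletal muscle and cardiac markers, whose summed levels (log2 of the summed signals of a list) spanned 16.15 to 18.78, 16.78 to 19.09, 11.83 to 19.26 and 9.3 to 15.88. In such whole tissue, fewer cells of a type and less RNA per cell cannot be told apart. Genes of other cells were high on single arrays, by 2 lists made after the values had been seen. On healthy aorta array 1, 8 of 8 neutrophil and plasma cell genes were at their highest among the aorta arrays, with a mean log2 level of 14.01 against 7.03 to 10.35 on the others. On rosiglitazone aorta array 1 the same was true of 8 of 8 squamous epithelium genes, at 15.3 against 5.42 to 10.4. Huoxue aorta array 1 came next in both lists, at 10.35 and 10.4. Muscle arrays varied too, from 5.82 to 10.42 for the squamous epithelium genes and from 6.5 to 10.27 for the neutrophil and plasma cell genes. In the same tissue, no slide held both group C and healthy arrays, and slide 1 alone, in aorta, held both group A and healthy arrays, so that in the other comparisons with group G slide and group cannot be told apart. All spots of the members, 924 in all, were below saturation, and each of the 10 genes passed the filter on dim probes in every comparison.

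The alpha class gene Gsta3 and the omega class gene Gsto1 were lower in KK/Ay mice of groups A and C than in healthy mice, the theta class gene Gstt1 was higher in group A, and the mu class gene Gstm2 was lower in the muscle of both groups. In the fits over both tissues (12 arrays, with tissue as a term), 3 of the 10 genes passed an adjusted p below 0.05 in A vs G, Gsta3 and Gsto1 lower and Gstt1 higher, where 4.5% of all 14808 genes tested did. For group C it was 2 of 10, both lower, beside 5.17% of 15742 genes. The median log2 difference of the 10 genes was 0.10 in A vs G and -0.05 in C vs G, beside 0.03 for all genes tested in each. Both comparisons use the same 6 healthy arrays and are therefore not independent of each other.

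Gsta3 encodes an alpha class enzyme known in mice for conjugating the epoxide of aflatoxin. On the log2 intensity scale, its levels in healthy aorta were 11.01, 9.62 and 10.78. In diabetic aorta they were 7.78, 8.34 and 7.76, and in macroangiopathy aorta 7.86, 8.20 and 7.48. The healthy arrays lay above all others, and across all 18 KK/Ay aorta arrays the highest level, 9.35 in huoxue array 1, which was also high in both of the cell lists named above, was below the lowest healthy one. In muscle the healthy levels were 8.85, 7.94 and 8.43. The diabetic ones were 6.74, 8.60 and 6.59, and those with macroangiopathy 7.15, 7.62 and 6.32. Here diabetic array 2 lay within the healthy range, while the macroangiopathy arrays did not overlap with it. In 6 of the 7 muscle sets the array with the highest Gsta3 was also the one with the highest mean of the squamous epithelium genes. For the neutrophil and plasma cell genes this held in 5 of the 7 muscle sets. In aorta the 2 lists gave 3 and 4 of 7 sets. The mean of the squamous epithelium genes was 5.82, 10.42 and 7.2 on the diabetic muscle arrays and 8.83, 9.99 and 6.03 on those with macroangiopathy. In healthy muscle it was 8.92, 5.97 and 10.04. The part of either list in the levels of Gsta3 was not tested. Without diabetic muscle 2 the difference over both tissues was -2.17 (adjusted p = 0.00296). Over both tissues Gsta3 fell by 1.80 in A vs G (SE 0.41, 95% interval -2.70 to -0.91), which is 3.49-fold lower, with an adjusted p of 0.0304. In group C it fell by 2 (SE 0.34, 95% interval -2.74 to -1.26), 4-fold lower, with an adjusted p of 0.00858. Its 2 probes gave -1.91 and -1.69 in A vs G and -2.10 and -1.90 in C vs G, although in muscle the second probe was well above background on only 1 of 3 diabetic and 2 of 3 macroangiopathy arrays. Within slide 1, which held 1 diabetic and 2 healthy aorta arrays, the difference was -3.12. The call in A vs G was lost when any 1 of 7 arrays was left out (healthy aorta 3, healthy muscle 1, diabetic aorta 1, 2 or 3, diabetic muscle 1 or 3), with log2 differences of -1.81 to -1.66 and adjusted p-values of 0.0521 to 0.0811, whereas that in C vs G was kept without any single array.

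Gsta4 encodes the alpha class enzyme that conjugates 4-hydroxynonenal, a toxic aldehyde of lipid peroxidation. In muscle its levels were 6.54, 6.78 and 7.44 on the healthy arrays, 7.98, 7.88 and 8.01 in the diabetic group and 7.80, 7.96 and 7.85 with macroangiopathy. The healthy arrays lay below the others, but the log2 differences of 1.04 (SE 0.24, adjusted p = 0.0616) and 0.95 (SE 0.24, adjusted p = 0.0809) did not pass after adjustment. The levels also differed by slide. The 8 muscle arrays of slides 3 and 11 ran from 5.97 to 7.18, and the 13 on other slides from 7.44 to 8.25, with no overlap. No muscle array of groups A, B, C or D was on slides 3 or 11, so slide and group cannot be told apart for those groups. In aorta, healthy array 1 had the lowest level of all, 6, beside 8.76 and 7.37 on the other healthy arrays, and the differences of A and C from G were 0.56 (SE 0.71) and 0.58 (SE 0.67).

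**Figure D1:**
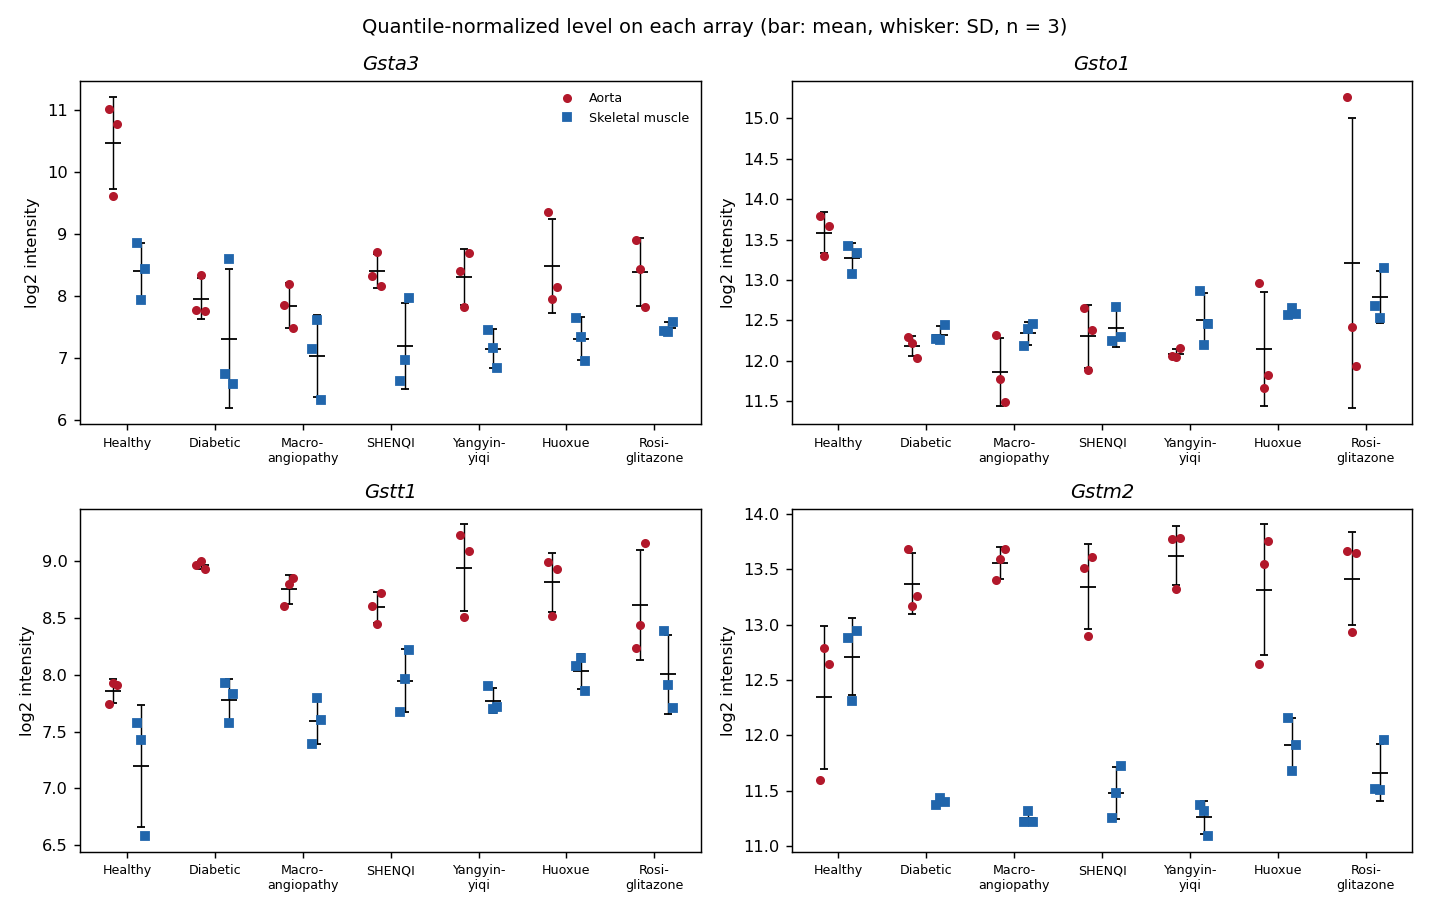
The log2 intensity of Gsta3, Gsto1, Gstt1 and Gstm2 on each of the 42 arrays, with aorta as circles, skeletal muscle as squares, and the mean and SD of 3 arrays in black. Healthy aorta lies between 9.62 and 11.01 for Gsta3, above every KK/Ay aorta array, while healthy muscle lies between 12.31 and 12.94 for Gstm2, above every KK/Ay muscle array.

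Gstm2 encodes a mu class enzyme that conjugates aryl epoxides and quinones, and its difference from healthy mice ran in opposite directions in the 2 tissues. In muscle the healthy levels were 12.88, 12.31 and 12.94. They were 11.37, 11.43 and 11.40 in the diabetic group and 11.22, 11.32 and 11.22 with macroangiopathy. All 18 KK/Ay muscle arrays, from 11.09 to 12.16, were below the lowest healthy one. In aorta the healthy levels were 11.60, 12.79 and 12.64, the diabetic ones 13.68, 13.17 and 13.26, and those with macroangiopathy 13.40, 13.59 and 13.68, so that both groups were above the healthy arrays. Fitted within muscle, Gstm2 fell by 1.31 in A vs G (SE 0.19, 2.48-fold lower, adjusted p = 0.0192) and by 1.45 in C vs G (SE 0.19, 2.74-fold lower, adjusted p = 0.0188). Within aorta the log2 differences of 1.03 (SE 0.35, adjusted p = 0.359) and 1.21 (SE 0.33, adjusted p = 0.169) did not pass. In muscle 2 of the 10 genes passed in A vs G and 2 in C vs G, Gstm2 and Gsto1 in both, beside 4.28% and 3.35% of all genes tested. With slide as a random block the counts were 0 and 1, and Gstm2 had adjusted p-values of 0.195 and 0.0344. With the replicate number as a block they were 0 and 0, and Gstm2 had 0.0761 and 0.0788. Leaving out 1 array ended the call of Gstm2 in A vs G without healthy muscle 1 or any 1 of the diabetic arrays (-1.32 to -1.22, adjusted p from 0.0585 to 0.122) and in C vs G without healthy muscle 1 or any 1 of the macroangiopathy arrays (-1.49 to -1.37, adjusted p from 0.06 to 0.131). In C vs G the change in aorta exceeded that in muscle by 2.66 (SE 0.40, 95% interval 1.77 to 3.56), and this difference between tissues passed with an adjusted p of 0.0489, as did 0.108% of all genes. It did not pass with the processed signal (2.38, adjusted p = 0.125), with the authors' table (0.0639), without the filter (0.0596), with slide as a random block (0.143) or with the replicate block (0.119), and over all alternatives the adjusted p ran from 0.00015 to 0.182. It was 2.29 without healthy aorta array 1 (adjusted p = 0.0104). It did not pass without any 1 of 9 other arrays (healthy aorta 3, healthy muscle 1 or 3, and each of the 6 macroangiopathy arrays), at 2.55 to 2.81 with adjusted p-values of 0.068 to 0.182. In A vs G the same difference was 2.34 (SE 0.42) and missed the threshold with an adjusted p of 0.138, where 0.0743% of genes passed.

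Gstm1, the mu class gene next to Gstm2 on chromosome 3, had levels of 11.07, 13.36 and 13 in healthy aorta, the first of them on the array rich in neutrophil genes. Group A had 13.71, 13.44 and 13.53 there and group C 13.47, 13.38 and 13.58, all above the healthy arrays. The log2 difference in aorta was 1.08 (SE 0.58) in A vs G, and without healthy aorta array 1 it was 0.38 (SE 0.19, adjusted p = 0.454). In muscle, healthy levels of 12.26, 12.97 and 12.64 lay above 12.16, 12.12 and 12.18 in group A and 12.05, 12 and 12.07 in group C. Those differences, -0.47 (SE 0.19) and -0.58 (SE 0.19), had adjusted p-values of 0.215 and 0.146. Gstm5, a mu class gene best known from brain and testis, differed from healthy mice by 0.07 (95% interval -0.32 to 0.46) in group A and 0.02 (-0.36 to 0.40) in group C over both tissues.

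Gstp1 encodes the pi class enzyme, which also binds the stress kinase JNK, and its levels lay in a narrow band of 12.53 to 13.73 on KK/Ay aorta arrays and 13.29 to 13.91 on KK/Ay muscle arrays, across the healthy 13.03 to 13.58 and 13.57 to 14.01. Its difference from healthy mice over both tissues was -0.11 (95% interval -0.38 to 0.16) in group A and -0.17 (-0.46 to 0.11) in group C. These intervals leave out a change of 1 log2 unit in either direction.

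Gstt1 encodes a theta class enzyme that acts on small halogenated compounds. In healthy aorta its levels were 7.74, 7.93 and 7.91. They were 8.97, 9 and 8.93 in the diabetic group and 8.61, 8.80 and 8.85 with macroangiopathy. No KK/Ay aorta array, from 8.24 to 9.23, reached down to the healthy ones. In muscle the healthy levels of 7.58, 7.43 and 6.58 lay just below the diabetic 7.93, 7.58 and 7.83, without overlap before rounding, and among those of group C, 7.39, 7.80 and 7.60. Over both tissues Gstt1 rose by 0.85 in A vs G (SE 0.18, 95% interval 0.46 to 1.23), 1.80-fold, with an adjusted p of 0.0206. Group C differed from G by 0.65 (SE 0.18) on that scale, with an adjusted p of 0.0554. The call in A vs G did not hold without diabetic aorta 2, diabetic aorta 3 or diabetic muscle 1, where the difference was 0.81, 0.83 and 0.84 and the adjusted p 0.0577, 0.0535 and 0.054. Gstt2, the theta class neighbour, differed by 0.50 (SE 0.30, adjusted p = 0.345) and 0.23 (SE 0.28, adjusted p = 0.633), and its healthy muscle arrays, at 9.11, 8.36 and 7.18, spread more widely than all 18 KK/Ay muscle arrays (8.70 to 9.23).

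Gstk1 encodes the kappa enzyme, which also helps assemble adiponectin, the fat cell hormone. Over both tissues it differed from healthy mice by 0.12 (95% interval -0.45 to 0.69) in group A and -0.14 (-0.68 to 0.40) in group C. Its lowest level in aorta, 10.66, was again on healthy aorta array 1.

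Gsto1 encodes the omega class enzyme, which carries a cysteine in its active site and reduces dehydroascorbate and mixed disulfides of proteins with glutathione. In healthy aorta its levels were 13.79, 13.30 and 13.67. They were 12.29, 12.22 and 12.04 in the diabetic group and 12.32, 11.77 and 11.49 with macroangiopathy. In muscle they were 13.42, 13.07 and 13.33 in healthy mice, 12.27, 12.26 and 12.44 in group A and 12.18, 12.39 and 12.45 in group C. The healthy arrays lay above both groups in both tissues. Of all 36 KK/Ay arrays, 2 were not below the healthy arrays of their tissue, rosiglitazone aorta array 1 with 15.27 and 1 rosiglitazone muscle array with 13.15. Over both tissues Gsto1 fell by 1.18 in A vs G (SE 0.13, 95% interval -1.47 to -0.88), 2.26-fold lower, with an adjusted p of 0.000562, and by 1.33 in C vs G (SE 0.19, 95% interval -1.74 to -0.91), 2.51-fold lower, with an adjusted p of 0.00314. Both calls held without any single array. Within muscle it fell by 0.95 (SE 0.15, adjusted p = 0.0221) and by 0.93 (SE 0.15, adjusted p = 0.0293). These 2 calls were lost without healthy muscle 1 or any 1 array of the KK/Ay group, at -1.01 to -0.87 with adjusted p-values of 0.0585 to 0.142 in A vs G and at -0.99 to -0.85 with 0.0787 to 0.179 in C vs G. Of the 9 alternatives run without leaving out an array, they were lost in 4 in A vs G and in 6 in C vs G. There the adjusted p ran up to 0.368 and 0.389. Slide as a random block was 1 of these (adjusted p = 0.227 and 0.0572). Within aorta, differences of -1.41 (SE 0.20) and -1.73 (SE 0.26) had adjusted p-values of 0.0698 and 0.0962. Within slide 1 the difference between 1 diabetic and 2 healthy aorta arrays was -1.44.

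**Figure D2:**
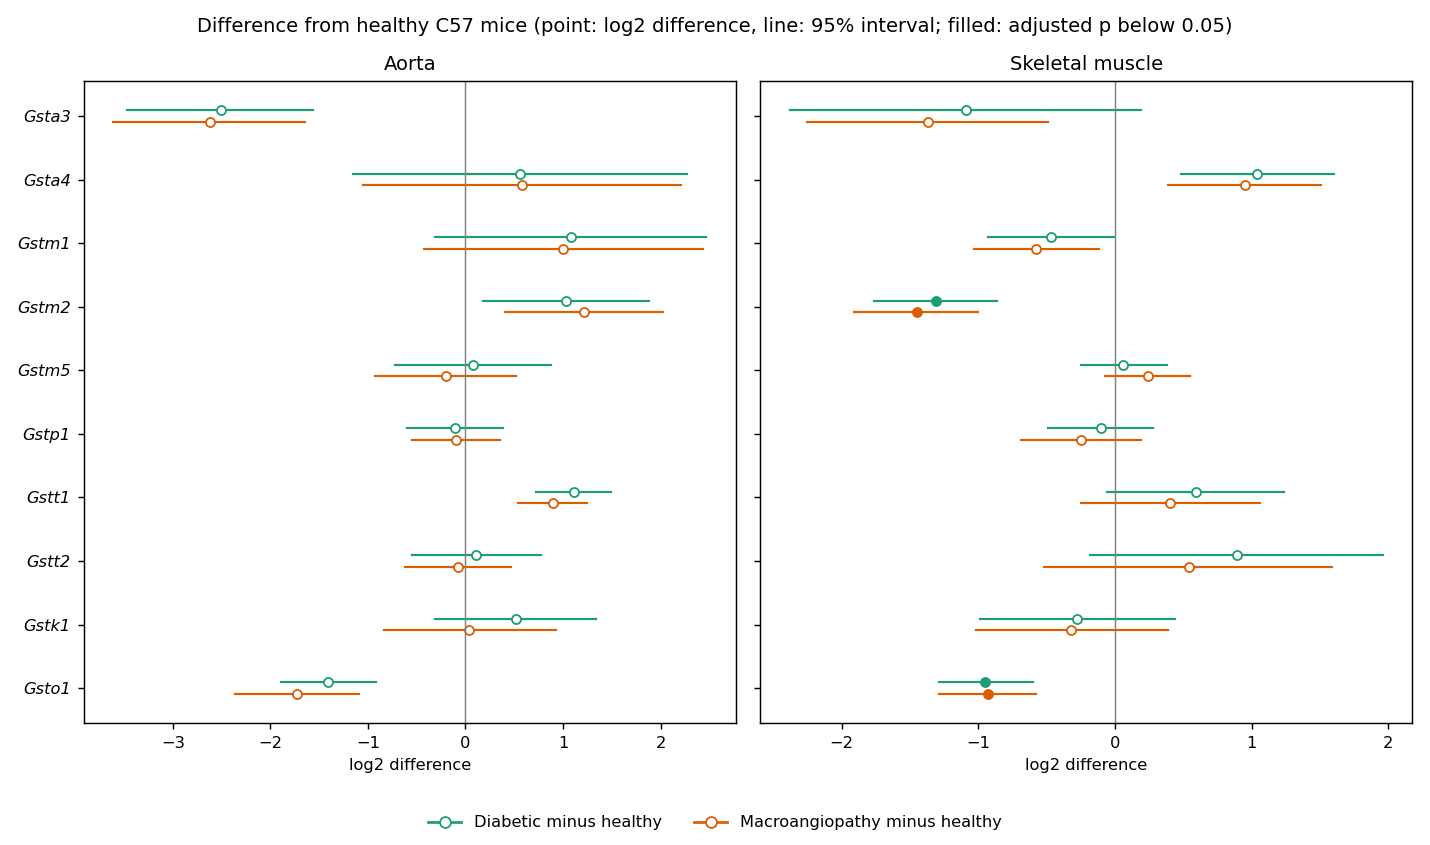
Log2 differences of the 10 genes from healthy C57 mice in aorta and skeletal muscle, with points for the estimate, lines for the 95% interval and filled points where the adjusted p was below 0.05. The filled points are Gstm2 and Gsto1 in muscle, while Gsta3, at -2.51 and -2.62 in aorta, lies farthest from 0 but is not filled there.

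In the fits within aorta alone, 0 of the 10 genes passed after adjustment in A vs G and in C vs G by limma, where 0.213% and 0.259% of all genes passed. At an unadjusted p below 0.05 it was 4 genes in each, with Gsta3 and Gsto1 lower and Gstm2 and Gstt1 higher, beside 11.7% and 18.6% of all genes. The groups did not overlap in aorta for 5 of the 10 genes in A vs G and 5 in C vs G, against 19.4% and 28.2% of all genes. In muscle the count was 5 of 10 and 6 of 10, against 31.1% and 30.4%.

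Marker genes of other cells also differed between healthy and KK/Ay arrays. In muscle the summed level of 7 adipocyte markers was 15.37 to 16.76 on healthy arrays, 14.47 to 14.97 in group A and 14.13 to 15.32 in group C, and the 7 genes did not move alike. In muscle the mean levels in groups G and A were 14.98 and 11.18 for Cfd, 10.48 and 7.57 for Retn, 13.87 and 13.78 for Fabp4, and 5.63 and 7.37 for Lep. In aorta these 7 markers spanned 17.03 to 18.78, 17.62 to 17.87 and 16.87 to 17.99. The summed level of 5 hepatocyte markers was 11.46 to 11.84 in healthy aorta, 9.17 to 9.33 in group A and 8.42 to 8.98 in group C, and in muscle it was 10 to 10.2, 8.28 to 8.49 and 7.98 to 8.44. Among those, Cyp2e1 was the highest, at a mean of 11.35 in healthy aorta against 8.67 in group A, and at 9.75 against 6.97 in muscle. The others did not move alike. In muscle the means in groups G and A were 6.21 and 5.97 for Alb, 5.63 and 5.6 for Apoa1, and 5.53 and 5.84 for Fgb. In aorta they were 7.15 and 6.14, 5.92 and 5.45, and 6.76 and 5.64. In muscle 0 of the 5 markers were well above background on all 21 arrays, and Ttr was so on none of the arrays of either tissue. In aorta the 8 smooth muscle markers summed to 13.25 to 16.82 in healthy mice, 16.73 to 17.61 in group A and 17.49 to 17.97 in group C. There the 4 erythroid markers spanned 15.97 to 17.58, 17.72 to 18.62 and 18.44 to 18.67, and the 6 fibroblast markers 11.92 to 13.01, 13.19 to 13.7 and 13.22 to 13.29. In muscle the 5 macrophage markers spanned 12.2 to 13.69, 11.91 to 12.17 and 11.92 to 12.11. Their part in the differences of Gsta3, Gsto1, Gstt1 and Gstm2 was not tested.

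Between the macroangiopathy and the diabetic group, which share strain and differ by diet and L-NAME, 0 of the 10 genes passed after adjustment by limma over both tissues, as did 0% of all genes. No slide held arrays of both groups, so slide and group cannot be told apart here either. At an unadjusted p below 0.05 there were 3, beside 5.12% of all genes, each lower in group C: Gstt1 by -0.20 (SE 0.09), Gstt2 by -0.27 (SE 0.11) and Gstk1 by -0.26 (SE 0.11). For Gsta3 the difference was -0.20 with a 95% interval of -0.92 to 0.53, and for Gsto1 -0.15 with an interval of -0.44 to 0.14.

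The 4 treatments were each compared with the untreated macroangiopathy group, whose 6 arrays serve all of these comparisons. Over both tissues, 0 of the 10 genes passed after adjustment by limma under SHENQI, yangyinyiqi, huoxue or rosiglitazone, where 0%, 0%, 0% and 0.00631% of all genes passed. At an unadjusted p below 0.05 there was 1 gene under SHENQI, Gstt2 at 0.25 (SE 0.08), and 1 under huoxue, Gstk1 at 0.32 (SE 0.14), beside 2.71% and 14.3% of all genes. There were 0 under yangyinyiqi and 0 under rosiglitazone, beside 3.41% and 12% of all genes.

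For the genes that were lower in group C than in healthy mice, 0 of the differences under treatment over both tissues passed after adjustment. Gsta3 differed from group C by 0.36 under SHENQI (95% interval -0.22 to 0.94), 0.29 under yangyinyiqi (-0.22 to 0.80), 0.46 under huoxue (-0.15 to 1.06) and 0.50 under rosiglitazone (-0.01 to 1). The corresponding values for Gsto1 were 0.25 (-0.12 to 0.63), 0.20 (-0.11 to 0.51), 0.28 (-0.18 to 0.73) and 0.90 (-0.14 to 1.93). Without huoxue aorta array 1 the values under huoxue were 0.24 (SE 0.23) for Gsta3 and 0.09 (SE 0.14) for Gsto1. The value of Gsto1 under rosiglitazone, 0.90, rests on aorta array 1, the one rich in squamous epithelium genes, and was 0.39 (SE 0.17, adjusted p = 0.325) without it. Among the 6 KK/Ay groups, no step between neighbours in the order of mean Gsta3 levels exceeded the larger SD of the pair in either tissue.

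**Figure D3:**
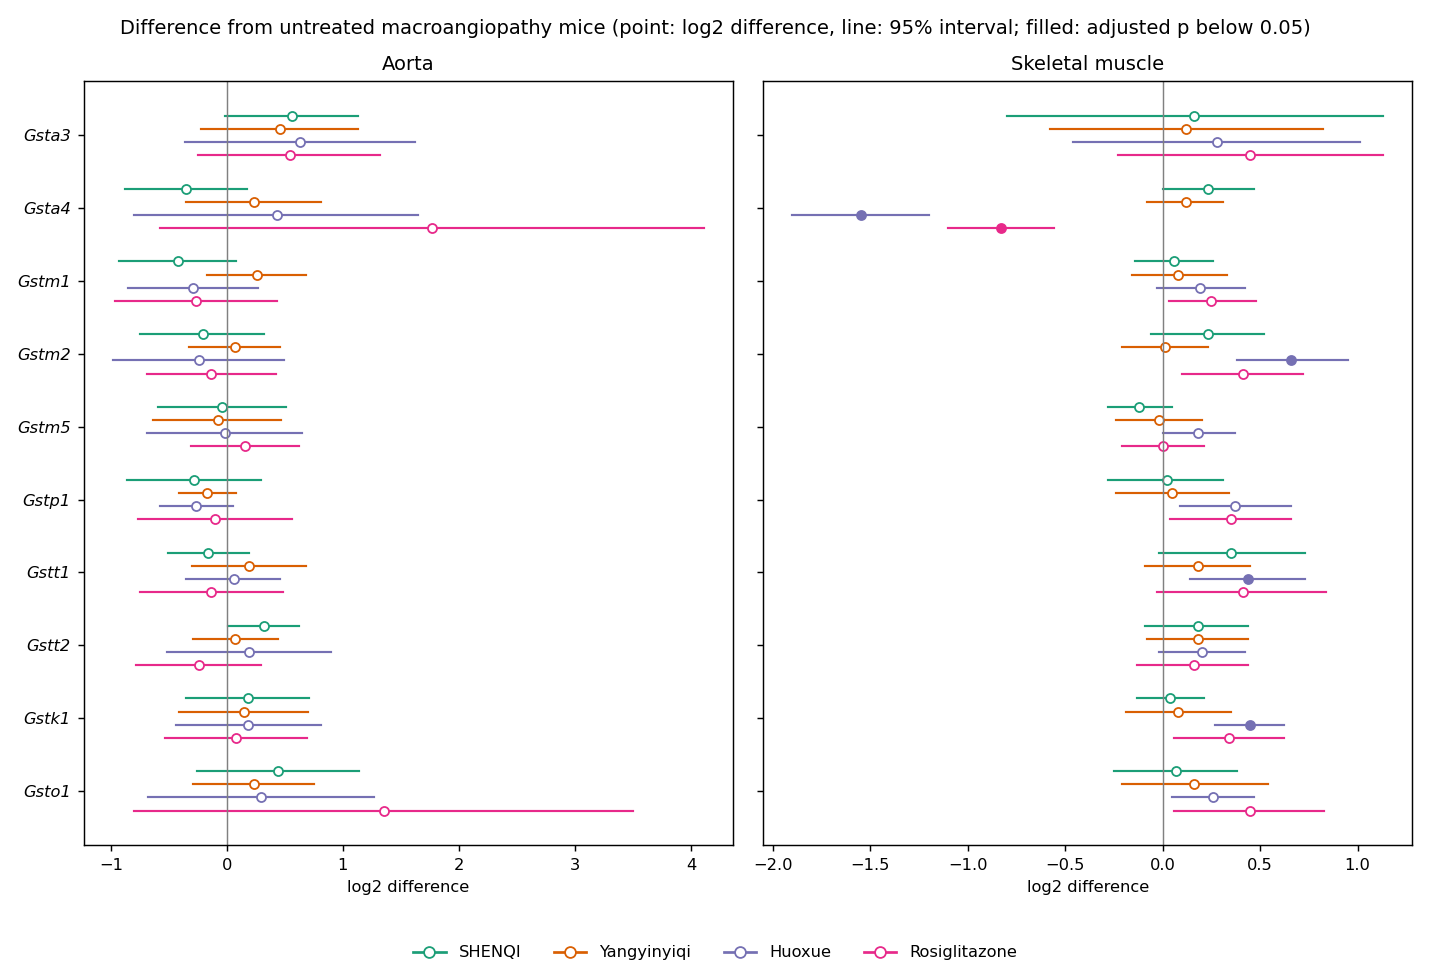
Log2 differences of the 10 genes under the 4 treatments from the untreated macroangiopathy group, in aorta and skeletal muscle, with 95% intervals and filled points where the adjusted p was below 0.05. Filled points appear in muscle under huoxue (Gsta4, Gstm2, Gstt1, Gstk1) and rosiglitazone (Gsta4), and the widest intervals in aorta are those of Gsta4 and Gsto1 under rosiglitazone.

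Within muscle, 4 of the 10 genes passed under huoxue. Gsta4 had levels of 6.57, 5.97 and 6.42 under huoxue, below 7.80, 7.96 and 7.85 in group C, and fell by 1.55 (SE 0.15, 2.92-fold lower, adjusted p = 6e-04). Its only probe was well above background on 1 of the 3 huoxue arrays, so the size of this fold is uncertain. Gstm2 had levels of 12.16, 11.68 and 11.91 against 11.22, 11.32 and 11.22 and rose by 0.66 (SE 0.12, adjusted p = 0.00754). Gstk1, with 12.21, 12.08 and 12.24 against 11.73, 11.72 and 11.73, rose by 0.45 (SE 0.08, adjusted p = 0.00532), and Gstt1, with 8.08, 8.15 and 7.86 against 7.39, 7.80 and 7.60, by 0.44 (SE 0.13, adjusted p = 0.0341). The groups did not overlap for any of the 4. Of all 13422 genes tested, 32.2% passed in the same comparison. The groups did not overlap for 8 of 10, beside 50.2% of all genes. All 3 huoxue muscle arrays were on slide 11 and all group C muscle arrays on slides 7 and 8, so slide and treatment cannot be told apart. Markers moved with this comparison: the 9 skeletal muscle markers summed to 19.83 to 19.93 under huoxue and 20.16 to 20.18 in group C, the 5 macrophage markers to 11.64 to 11.83 and 11.92 to 12.11, and the 6 cardiac markers to 12.98 to 13.64 and 12.58 to 12.86, and their part was not tested. In the fit of all 42 arrays without a slide term 0 of the 10 genes passed (adjusted p from 0.125 to 0.371 for these 4). The 42 arrays were also fitted together with 1 batch term shared by slides 1, 3 and 11, a setting chosen after seeing the data. There 0 of the 10 genes passed, and the difference of Gsta4 was -0.47 (SE 0.67, adjusted p = 1). The call of Gstt1 did not hold without macroangiopathy muscle 1 or 3 or huoxue muscle 1 or 2, where the difference was 0.33 to 0.44 and the adjusted p 0.072 to 0.106. Of the 9 alternatives run without leaving out an array, the call of Gstt1 was lost in 5. Those of Gsta4, Gstm2 and Gstk1 were each lost in 2.

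Rosiglitazone gave 1 call in muscle, beside 9.85% of all genes. Gsta4 had levels of 6.80, 7.18 and 7.14 there and fell by 0.83 from group C (SE 0.12, 1.78-fold lower, adjusted p = 0.00947). These arrays too were on slides 11 and 3. Within slide 3, which held 2 rosiglitazone and 2 healthy muscle arrays, Gsta4 was 0.50 higher under rosiglitazone than in healthy mice, and in the fit with the batch term its difference from group C was 0.25 (SE 0.67). In aorta, Gsta4 stood at 12.01 on rosiglitazone array 1 and at 8.68 and 8.46 on the other 2, and its log2 difference of 1.77 (SE 0.96) from group C was 0.62 (SE 0.22, adjusted p = 0.786) without that array.

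**Figure D4:**
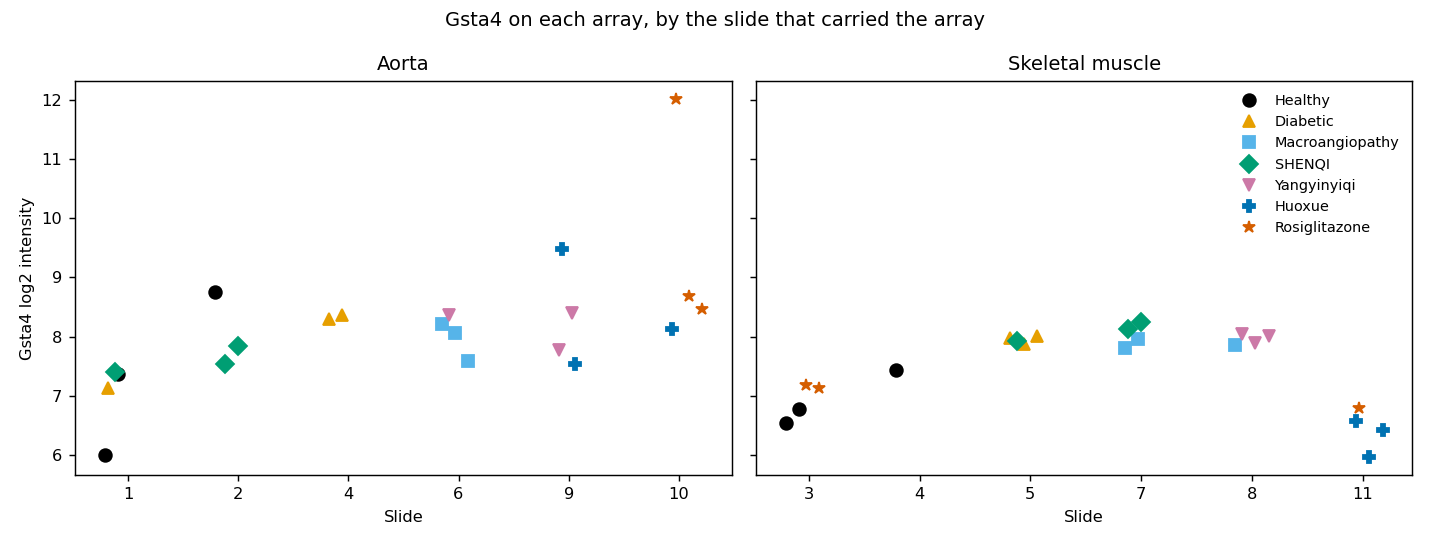
The log2 intensity of Gsta4 on each array, set out by slide number, with a marker for each group. In muscle the arrays of slides 3 and 11 lie between 5.97 and 7.18, below all other muscle arrays. The muscle arrays on these slides were healthy, huoxue and rosiglitazone ones only. In aorta rosiglitazone array 1 stands alone at 12.01.

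SHENQI and yangyinyiqi gave 0 calls in either tissue by limma, where 0% of all genes passed in each of these fits. At an unadjusted p below 0.05 there was 1 gene, Gstt2 under SHENQI in aorta, with levels of 9.95, 9.98 and 9.92 against 9.64, 9.55 and 9.72 in group C, without overlap, and a difference of 0.32 (SE 0.13). Of all genes, 1.61% and 2.94% were past that limit in aorta and muscle under SHENQI, and 1.4% and 3.83% under yangyinyiqi. Under SHENQI in aorta the groups did not overlap for 1 of the 10 genes, beside 6.6% of all genes. Huoxue and rosiglitazone gave 0 calls in aorta, where 0% of all genes passed, and 0 at an unadjusted p below 0.05, beside 2.07% and 7.11%. The difference between the changes in aorta and muscle under these 2 treatments passed for 0 of the 10 genes by limma, where 3.05% and 1.51% of all genes passed, and 3 and 1 genes were past an unadjusted p of 0.05, beside 17.5% and 16.6%. In aorta no slide held both group C and SHENQI, huoxue or rosiglitazone arrays, so slide and treatment cannot be told apart there. Some slides held both a treated and the untreated group. Under SHENQI the log2 differences within slide 7 in muscle (2 arrays against 2) ran from -0.14 for Gstm5 to 0.49 for Gstt1. Under yangyinyiqi those within slide 6 in aorta (1 against 3) ran from -0.15 for Gstp1 to 0.56 for Gstm1, and those within slide 8 in muscle (3 against 1) from -0.23 for Gstp1 to 0.83 for Gsta3.

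**Figure D5:**
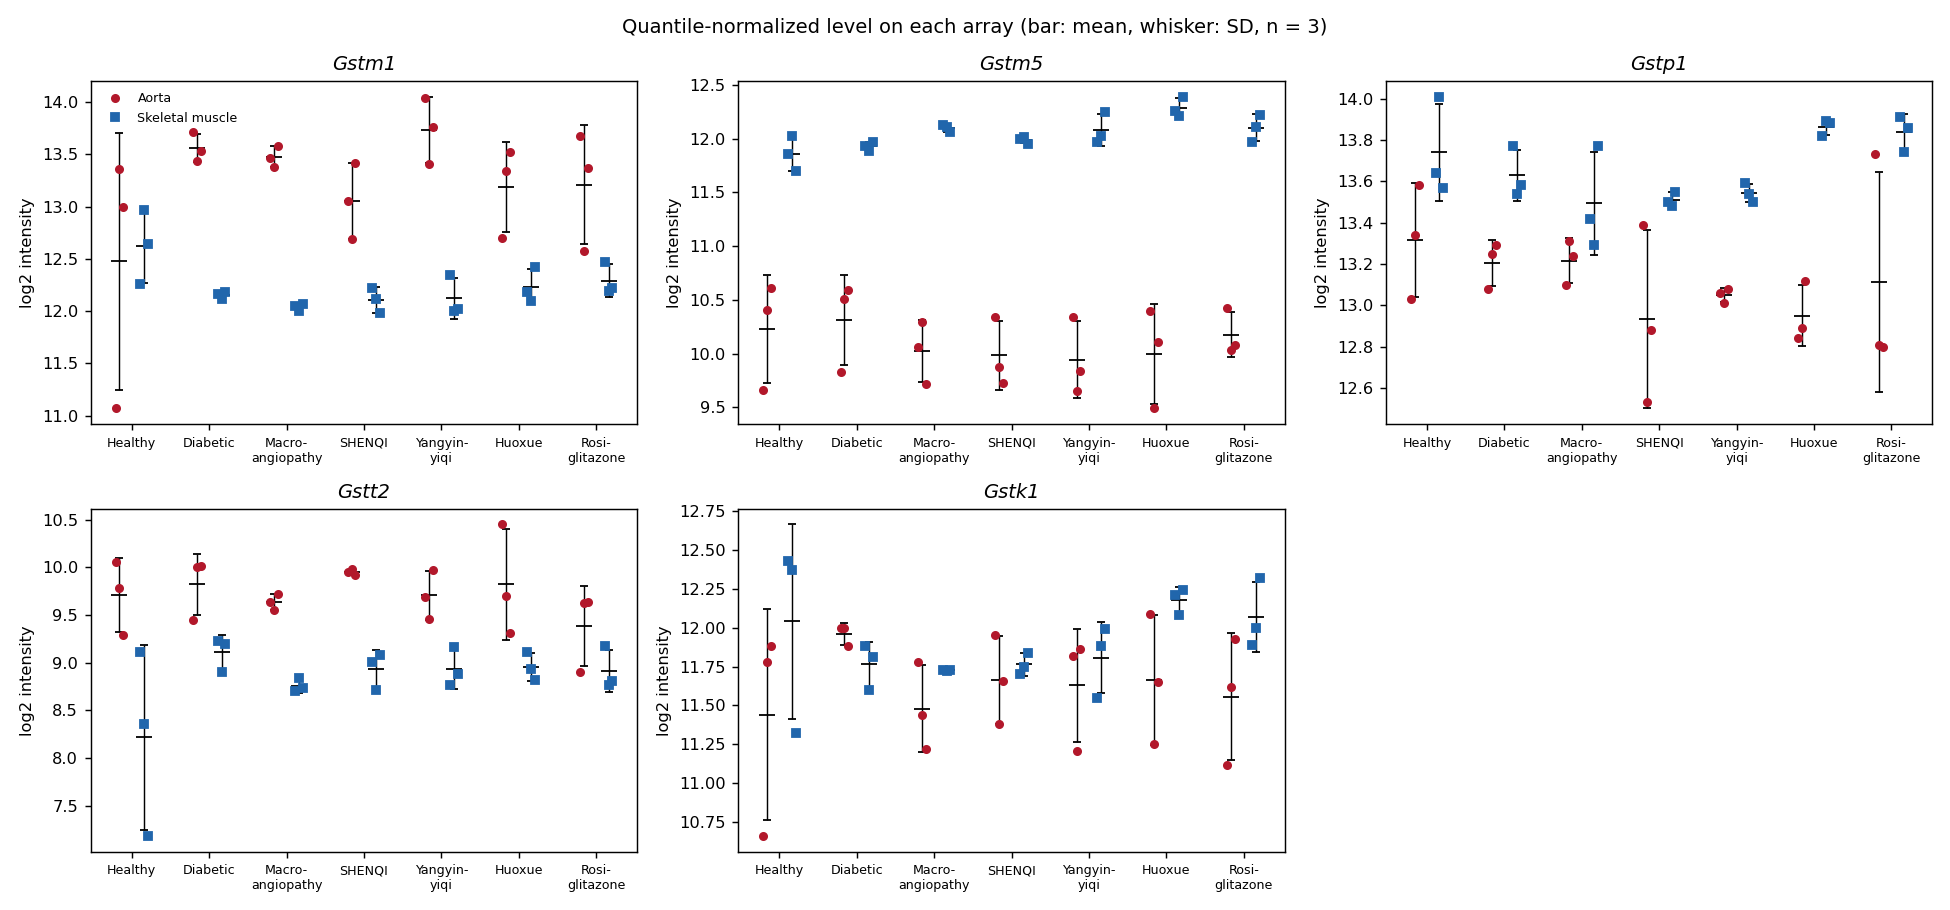
The log2 intensity of Gstm1, Gstm5, Gstp1, Gstt2 and Gstk1 on each of the 42 arrays, with aorta as circles, skeletal muscle as squares, and the mean and SD of 3 arrays in black. Healthy aorta array 1 is the lowest aorta point of Gstm1, at 11.07, and of Gstk1, at 10.66, and the muscle arrays of Gstm5 lie above all its aorta arrays.

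The healthy mice also gave the levels of the genes in the 2 tissues without disease or treatment. No slide held both tissues of healthy mice, or both tissues of KK/Ay mice, so slide and tissue cannot be told apart here. Gsta3 was higher in aorta by 2.07 (SE 0.42, 95% interval 1.06 to 3.08), 4.19-fold, with an adjusted p of 0.0306. Gstm5 was lower there, with levels of 9.66, 10.41 and 10.61 against 11.86, 12.02 and 11.70 in muscle, a difference of -1.63 (SE 0.29), 3.11-fold lower, with an adjusted p of 0.0186. They were 2 of 10 genes, beside 8.88% of all genes, and the groups did not overlap for 4 of 10, beside 30.7%. Without any 1 of the healthy muscle arrays the adjusted p of Gsta3 was 0.0634 to 0.12 (differences of 1.83 to 2.29) and that of Gstm5 0.0551 to 0.0881 (-1.71 to -1.55), and without healthy aorta 3 Gsta3 was at 1.91 (adjusted p = 0.117). The same order held for Gstm5 in the KK/Ay mice, whose 18 aorta arrays ran from 9.49 to 10.59 and 18 muscle arrays from 11.88 to 12.39. Gstt2 was 1.49 higher in aorta (SE 0.50, adjusted p = 0.122) and did not pass.

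Other genes of glutathione metabolism were counted in the same fits. Of 12 other cytosolic glutathione S-transferase genes on the array, 8 were tested in A vs G and in C vs G over both tissues, and 0 passed in either by limma (1 and 0 at an unadjusted p below 0.05, where 22.1% and 24.3% of all genes were). Of 6 genes of the membrane-bound family, 2 were lower in A vs G, beside 4.5% of all genes passing: Ptges, which makes prostaglandin E, at -1.55 (SE 0.25, adjusted p = 0.00509), and Mgst2, which can make leukotriene C, at -1.36 (SE 0.28, adjusted p = 0.0198). In C vs G 1 of the 6, Ptges, was lower at -1.78 (SE 0.27, adjusted p = 0.00404), beside 5.17% of all genes. The median difference of these 6 genes was -0.83 in A vs G and -0.98 in C vs G.

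Of 22 genes for the synthesis, use and breakdown of glutathione, 20 were tested and 2 passed in A vs G, beside 4.5% of all genes. Gclc, the catalytic subunit of the enzyme that starts glutathione synthesis, was at -0.57 (SE 0.14, adjusted p = 0.0416), and Glrx, a glutaredoxin, at 0.98 (SE 0.25, adjusted p = 0.0446). In C vs G 3 passed, all lower, beside 5.17%: Gclc at -0.54 (SE 0.13, adjusted p = 0.0308), Hagh, the second enzyme of the glyoxalase pathway, at -0.90 (SE 0.19, adjusted p = 0.0224), and Chac1, which degrades glutathione, at -1.55 (SE 0.41, adjusted p = 0.0498). Of 9 genes of the NRF2 axis, 0 passed in either comparison by limma. At an unadjusted p below 0.05 there were 3 in A vs G (2 of them higher) and 2 in C vs G (1 of them higher), beside 22.1% and 24.3% of all genes. Between the tissues of healthy mice 1 of the 9 passed, beside 8.88% of all genes. This was Nqo1, lower in aorta than in muscle, at -1.86 (SE 0.24, adjusted p = 0.00599). In that fit 1 gene of the membrane-bound family was higher in aorta and 1 lower, of 6 tested. Of the 20 genes of glutathione synthesis, use and breakdown, 2 were higher and 1 lower, and of 8 other cytosolic genes 0 passed. Slide and tissue cannot be told apart there.

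Across the 42 arrays, after the mean of each tissue was removed, the gene most like Gstm1 was Gstm3 (Pearson r = 0.97), another mu class gene, and whether their probes bind each other's transcripts was not tested. Gsto1 was most like Slc19a2, a thiamine transporter (r = 0.924), and Egln3, an oxygen-sensing hydroxylase (r = 0.88). Without the healthy arrays, over 36 arrays, these were 0.933 and 0.891. Without rosiglitazone aorta array 1, where Gsto1 was at 15.27, they were 0.884 and 0.777 over 41 arrays. The nearest to Gsta3 were G6pdx (r = 0.832), which supplies NADPH, and Ptges (r = 0.831), with 0.685 and 0.594 without the healthy arrays. All of these are descriptions over 11300 candidate genes on arrays that share slides and groups.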

How the data were processed

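The authors hybridized 42 RNA samples, 3 per group and tissue, to Agilent arrays with 1 dye. The deposited scanner files of Feature Extraction 10.7.3.1 give the intensity of 45018 spots per array, 1639 of them controls, as the median over pixels of spot and local background. A table of log2 values deposited beside them has an order within each array that is that of the processed signal, while its further scaling is not given in the sources used here.

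Median intensity was corrected by normexp (offset 0) in limma 3.58.1, quantile normalized and log2 transformed (R 4.3.3). Irregular spots were masked and spots, then probes, of a gene averaged. A gene entered a test if 1 of its probes was well above background throughout the 3 arrays of any set compared. Differences were fitted with lmFit and eBayes on the arrays compared, with tissue as a term over both tissues and Benjamini-Hochberg adjustment over all genes tested. Adjusted p-values are limma's.

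The alternatives were an offset of 50, the scanner's processed signal divided by its 75th percentile, the authors' table, no filter, the brightest probe of a gene, a fit of all 42 arrays, slide as a random or fixed block (statmod 1.5.0), a replicate block, each array left out in turn and, added after seeing the data, slides 1, 3 and 11 as a batch term. The precision is limited by 3 arrays per set. The members, the gene lists and the rule that named up to 4 called genes of a list per comparison, and the 2 genes most alike, were chosen with earlier results of these data known. The fit was tested on simulated data. Figures were made with matplotlib in Python.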

Additional observations from a re-analysis of the deposited data

Results flagged for a closer look

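The difference of Gstm2 from healthy mice in the macroangiopathy group was 2.66 log2 units greater in aorta than in skeletal muscle. It was singled out because the change differed between the tissues by an interaction term in limma (adjusted p = 0.0489), with all 3 aorta arrays of group C above the healthy ones and all 3 muscle arrays below them.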

How the results depend on the processing

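The lower Gsto1 over both tissues in A vs G and in C vs G, and the lower Gsta3 in C vs G, passed under every alternative run (adjusted p up to 0.0401, 0.0454 and 0.0254). Slide as a fixed block could not be run in C vs G, where no slide held arrays of both groups. Gsta3 in A vs G did not pass with slide as a fixed block (-3.12, adjusted p = 0.095). In the fit of all 42 arrays the number of the 10 genes called was 5 in A vs G in aorta, 1 in muscle and 1 in the difference between tissues, 5 in C vs G in aorta and 1 in muscle, 0 in muscle under huoxue and 0 under rosiglitazone, and 4 between healthy tissues. With slides 1, 3 and 11 as a batch term, an alternative chosen after seeing the data, it was 5 in A vs G in aorta and 1 in the difference between tissues, 4 in C vs G in aorta, 1 in muscle and 2 in the difference, 0 in muscle under huoxue and 0 under rosiglitazone, and 4 between healthy tissues. Gsta4 under rosiglitazone in muscle reversed there, to 0.25, and the cause was not tested. With slide as a random block it was 0 in A vs G in muscle, 1 in C vs G in muscle and 0 in the difference. The processed signal gave 1 in C vs G in muscle, 0 in its difference and 1 in the difference between tissues under huoxue. The authors' table gave 0 in the C vs G difference, and without the filter it was 0 there and 1 in muscle. The share of all genes passing under each alternative is not given beside these counts. They therefore show only how the calls moved with the processing.

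The replicate numbers did not pair the arrays (correlations of -0.531 to 0.554, and in 0 of 21 sets was each above 0.1). With the replicate number as a block, 0 of the 10 genes were called in muscle in A vs G and 0 in C vs G, and 0 in the C vs G difference. Gstm2 had adjusted p-values of 0.0761, 0.0788 and 0.119 there, and Gsta3 in A vs G over both tissues had 0.0582.

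With 1 array left out, the counts ran from 1 to 4 in A vs G over both tissues, 0 to 2 in aorta, 0 to 4 in muscle and 0 to 1 in the difference. In C vs G they ran from 0 to 2 in aorta, 0 to 4 in muscle and 0 to 1 in the difference. They ran from 0 to 1 in the difference under huoxue and under rosiglitazone, and from 0 to 2 between healthy tissues. These counts, too, stand without the share of all genes passing in the same fits. Of the other results for single genes, 123 kept direction and side of the threshold and 32 fell short of it, and with 1 array left out 92 and 46. With the processed signal the median log2 difference of all genes in A vs G in muscle was 0.17, beside 0.03 in the main processing. With 3 arrays per set, small differences were not detectable.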

Other observations

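Among the members themselves, after the mean of each tissue was removed, the pair with the highest Pearson r over the 42 arrays was Gstm1 and Gstm2 (0.747), followed by Gsta3 and Gsto1 (0.637). The lowest was Gsta3 and Gstt1 (-0.549). These pairs share arrays, slides and the split between healthy and KK/Ay mice, and the values are descriptions.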
